A study of Mus musculus with 4 samples.

Results

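The genes described here encode BMP ligands (Bmp2, Bmp3, Bmp4, Bmp6 and Bmp7) and secreted antagonists, proteins that bind such ligands outside the cell (Nog, Grem1, Fst, Chrd and Sostdc1). They were taken by gene symbol from the deposited expression table, and all 10 were found among its 23361 genes. BMP ligands are secreted dimers of the TGF-β superfamily that bring type I and type II receptor kinases together at the cell surface. The activated receptors phosphorylate Smad1, Smad5 and Smad9, which enter the nucleus with Smad4 and switch on genes such as those of the Id family. In developing skin, BMP signaling restrains the start of new hair placodes and later takes part in hair differentiation and in keeping stem cells quiescent, and antagonists set where the ligands can act.

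RNA was sequenced from 2 libraries of Nfatc1+ cells and 2 libraries of Shh+ cells from mouse embryonic back skin at E17.5. The paper describes both as cells of hair pegs, the downgrowths of epithelium that become hair follicles. The embryos were Nfatc1-CreER::Rosa-stop-tdTomato::K14-H2BGFP or Shh-CreER::Rosa-stop-tdTomato::K14-H2BGFP, and their mothers received tamoxifen once at E15.5. CreER, a recombinase that acts only with tamoxifen, was expressed from Nfatc1 or Shh and turned on the red reporter tdTomato, so a red cell had expressed the driver around the time of tamoxifen or descended from such a cell. K14-H2BGFP, expressed from the keratin 14 promoter, gave epithelial cells a green nucleus, and cells carrying both colors were sorted. To obtain Nfatc1+ cells, whole back skin spent 16 min in 0.25% trypsin at 37°C. To obtain Shh+ cells, dispase (0.4 mg/ml, 1 h, 37°C) first allowed the epidermis to be taken off. With it went the earlier follicle stages, placodes and hair germs, a removal not given for the Nfatc1+ cells. The dermis with its hair pegs then spent 10 min in trypsin. The digestion went with the population, and the effects of these steps and of the population cannot be told apart. Whether replicates were separate animals is not given in the sources used here, so the p-values rest on a spread between libraries that may be only technical.

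The deposited values were FPKM, fragment numbers divided by transcript length and by the mapped fragments of the library, a scale on which levels of different genes can be compared. Averaged over the 4 libraries, 12750 genes reached 0.5 FPKM, the filter used here, and these were compared with limma on log2(FPKM + 0.5). A gene was called at a Benjamini-Hochberg adjusted p under 0.05 over all tested genes. A positive log2 fold change stands for a higher level in Shh+ cells, and the added 0.5 makes it smaller for low genes than the fold itself, which was taken between mean FPKM. In bulk samples such as these, fewer cells of a type and less RNA per cell cannot be told apart.

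BMP genes are related in sequence, so it was asked whether reads of 100 bases could tell the ligands apart. The closest pairs are shown because Bmp2 and Bmp4, or Bmp6 and Bmp7, would be the first to be confused. Each 30-base stretch of coding sequence is from the GENCODE vM21 transcripts (build GRCm38), and the capitals mark the longest run of identical bases that the pair shares.
Bmp2: gcgcagcTTCCATCACGAAGAAgccgtgga
Bmp4: gaggagtTTCCATCACGAAGAAcatctgga
Bmp6: agCCCTTCATGGTGGCCTTCTTCAAGGtga
Bmp7: aaCCCTTCATGGTGGCCTTCTTCAAGGcca
The Bmp2 stretch joins exons 2 and 3 of 3 (chr2:133554749-133560883, plus strand, intron included), and the Bmp4 stretch joins exons 3 and 4 of 4 (chr14:46384703-46385734, minus strand, intron included). The Bmp6 stretch lies in exon 4 of 7 (chr13:38485799-38485828, plus strand), and the Bmp7 stretch lies in exon 4 of 7 (chr2:172879434-172879463, minus strand). The shared run was 15 bases for Bmp2 and Bmp4 and 25 bases for Bmp6 and Bmp7, and no other pair of the 5 ligands shared more than 12. No window of 100 bases in the transcripts of Bmp2, Bmp3, Bmp4, Bmp7, Nog or Sostdc1 was found in a transcript of another gene on either strand. Windows shared with another gene made up 3.29% of those of Bmp6 (with Txndc5), 1.82% of Chrd (with Thpo), 0.341% of Fst (with Gm47040) and 0.198% of Grem1.

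The libraries carried the marks of their sort. Shh was at 10.5 to 11.7 FPKM in Nfatc1+ cells and 144 to 145 FPKM in Shh+ cells, and Nfatc1 was at 112 to 116 FPKM and 20.1 to 25.3 FPKM. The epithelial keratin gene Krt14 was at 1030 to 1232 FPKM in the 4 libraries. Transcripts of dermal fibroblast markers were present as well, with Pdgfra at 0.631 to 1.71 FPKM but Col1a1 at 52.7 to 164.6 FPKM and Dcn, which encodes the matrix protein decorin, at 40.3 to 424.7 FPKM. Absolute depth is unknown. Relative depth, read from the size of the smallest steps among genes under 0.3 FPKM and set to 1 in Nfatc1+ replicate 1, was 0.927 in both Nfatc1+ replicate 2 and Shh+ replicate 1, and 0.575 in Shh+ replicate 2, the shallowest library.

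Ligand and antagonist genes differed between the populations in opposite directions for their most abundant members. The 3 ligand genes that passed the filter, Bmp2, Bmp4 and Bmp7, were all higher in Shh+ cells. The 2 abundant antagonist genes, Fst and Sostdc1, were higher in Nfatc1+ cells, and the third antagonist gene that passed, Chrd, was low and was higher in Shh+ cells. Of the 10 genes, 6 passed the filter, 4 were called toward Shh+ cells and 2 toward Nfatc1+ cells, where these directions took 18.1% and 18.9% of the tested genes. For 8 of the 10, every library of 1 group lay above every library of the other. These were the 6 that passed the filter, with Bmp3 and Bmp6. The same held for 70.7% of the tested genes, a share that leaves out genes below the filter. Bmp3, Bmp6, Nog and Grem1 stayed below the filter and were not tested. Over all 5 members of each class, the median log2 fold change was 0.64 for ligands and −0.20 for antagonists. These are the values of Bmp6 and Nog, both below the filter and not tested. All tested genes had a median of 0.00 and quartiles of −0.25 and 0.23.

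**Figure D1:**
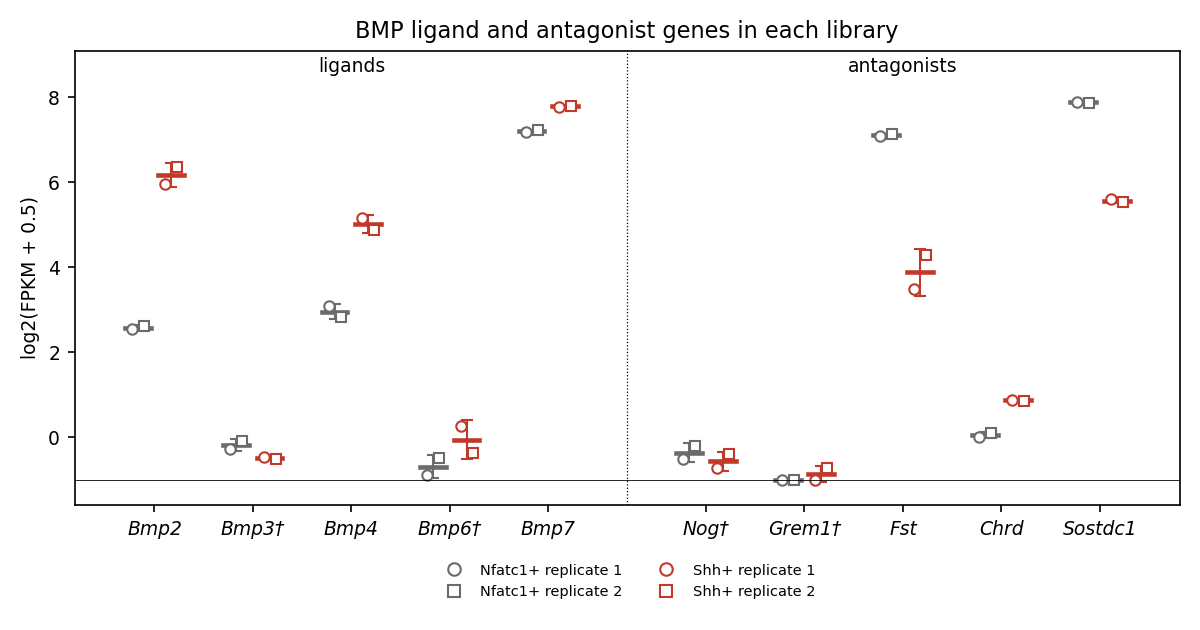
Level of each BMP ligand and antagonist gene in each library, as log2(FPKM + 0.5). Circles and squares are replicates 1 and 2, thick bars are means, error bars are SD (n = 2), the thin horizontal line is 0 FPKM, and a dagger marks the 4 genes that were below the filter and not tested. Bmp2, Bmp4 and Bmp7 sit higher in both Shh+ libraries, and Fst and Sostdc1 sit higher in both Nfatc1+ libraries.

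Among the ligands, Bmp2 differed the most. Bmp2 encodes a ligand expressed in the epithelium of hair placodes and in the matrix, the proliferating cells at the base of the follicle. It lies on the plus strand of chromosome 2 (chr2:133552159-133562885) and has 1 annotated transcript. Bmp2 was at 5.30 and 5.64 FPKM in the Nfatc1+ libraries and at 62.2 and 82.1 FPKM in the Shh+ libraries. Both Shh+ libraries stood far above both Nfatc1+ libraries. The means were 5.47 ± 0.241 and 72.1 ± 14.1 FPKM (SD, n = 2), a 13.2-fold difference, with a log2 fold change of 3.59 (SE 0.13, 95% confidence interval 3.28 to 3.90, limma adjusted p = 5.75e-06). Of the 12750 tested genes, 29 had a larger change toward Shh+ cells. By mean level, Bmp2 ranked 9060 among all genes of the table in Nfatc1+ cells and 1014 in Shh+ cells. Its 2 Shh+ libraries differed by 0.40 on the log2 scale, more than 98.0% of the 7257 genes at 10 FPKM or more.

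Bmp4, the closest relative of Bmp2, is best known in skin from the dermal condensate, the mesenchymal cells under the placode. It lies on the minus strand of chromosome 14 (chr14:46383520-46390669). Bmp4 was at 7.97 and 6.58 FPKM in the Nfatc1+ libraries and at 35.3 and 28.7 FPKM in the Shh+ libraries. The lower Shh+ library was well above the higher Nfatc1+ library. Replicate 2 minus replicate 1 was −0.26 in Nfatc1+ and −0.29 in Shh+ cells on the log2 scale. In size this exceeded 94.1% and 94.6% of the genes at 10 FPKM or more. The means of 7.28 ± 0.986 and 32.0 ± 4.64 FPKM (SD, n = 2) differed 4.40-fold, with a log2 fold change of 2.06 (SE 0.13, 95% confidence interval 1.75 to 2.37, limma adjusted p = 4.77e-05). Bmp4 shares exon sequence with Gm15217 on the opposite strand, a gene listed at 0 to 0.543 FPKM. Because Bmp4 is also a dermal condensate gene, the other condensate markers were summed beside it. The 7 markers left after Bmp4 and Nog were taken out (Sox2, Sox18, Corin, Alpl, Rspo3, Fgf10 and Hhip) summed to 9.11 and 11.3 FPKM in the Nfatc1+ libraries and to 5.70 and 4.40 FPKM in the Shh+ libraries. Sox2, which is also a Merkel cell marker, made up much of the sum in the Nfatc1+ libraries, at 5.21 and 6.39 FPKM. In the Shh+ libraries it was a smaller part, at 0.687 and 1.24 FPKM. The sums of the other 6 overlapped between the groups (3.91 and 4.91 FPKM against 5.01 and 3.16 FPKM). The markers moved in both directions. Alpl was higher in Shh+ cells with Bmp4, at 0.110 and 0.197 FPKM against 1.93 and 1.21 FPKM (log2 fold change 1.64, limma adjusted p = 0.00309), while Sox2 and Hhip were called toward Nfatc1+ cells. None of the 7 was at 0 in any library, and their part in the Bmp4 result was not tested.

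Bmp7 was the most abundant ligand gene in every library. It encodes a ligand made by many embryonic epithelia, and it lies on the minus strand of chromosome 2 (chr2:172868012-172940321). Bmp7 was at 144.3 and 149 FPKM in the Nfatc1+ libraries and at 218.8 and 223.1 FPKM in the Shh+ libraries. The replicates lay close together and the groups did not overlap. The means of 146.6 ± 3.33 and 221 ± 2.997 FPKM (SD, n = 2) differed 1.51-fold, with a log2 fold change of 0.59 (SE 0.055, 95% confidence interval 0.46 to 0.72, limma adjusted p = 0.000267). Its change was thus smaller than those of Bmp2 and Bmp4, and 9.98% of the tested genes had a larger change toward Shh+ cells.

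The other ligand genes were near the lower limit of the table. Bmp3, whose product opposes other BMPs in bone, lies at chr5:98854415-98884396 on the plus strand. It was at 0.321 and 0.440 FPKM in Nfatc1+ cells and at 0.220 and 0.203 FPKM in Shh+ cells, so the groups did not overlap, and the direction was opposite to that of the abundant ligands. Bmp6, which encodes a close relative of the Bmp7 protein, lies at chr13:38345107-38500302 on the plus strand. It was at 0.0382 and 0.206 FPKM in Nfatc1+ cells and at 0.701 and 0.266 FPKM in Shh+ cells. Here too the groups did not overlap, but Shh+ replicate 1 was far above Shh+ replicate 2. Whole numbers of fragments were matched to these values, with the libraries in the order just given. The smallest that fit were 11, 14, 7 and 4 for Bmp3 and 1, 5, 17 and 4 for Bmp6. Multiples of these would fit equally well, so the true numbers of fragments are not known and may be small. Part of the exon sequence of Bmp6 lies across from Txndc5 on the opposite strand. Txndc5 was at 42.8 to 55.6 FPKM in the 4 libraries and highest in Nfatc1+ replicate 1, where Bmp6 was lowest. Whether its reads reached the Bmp6 value was not tested.

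Among the antagonists, Fst changed the most. Fst encodes follistatin, which binds activins tightly and several BMPs less tightly, and it lies on the minus strand of chromosome 13 (chr13:114452290-114458951), with 4 coding transcripts among its 6. Fst was at 135 and 140.3 FPKM in the Nfatc1+ libraries and at 10.8 and 18.9 FPKM in the Shh+ libraries. Both Nfatc1+ libraries stood several times above either Shh+ library. The means were 137.7 ± 3.73 and 14.8 ± 5.73 FPKM (SD, n = 2), and Fst was 9.28-fold higher in Nfatc1+ cells (log2 fold change −3.22, SE 0.22, 95% confidence interval −3.75 to −2.70, limma adjusted p = 6.71e-05). Of the tested genes, 38 had a larger change toward Nfatc1+ cells. The 2 Shh+ libraries differed by 0.78 on the log2 scale, more than 99.7% of the genes at 10 FPKM or more. Without Shh+ replicate 1 the log2 fold change was −2.83, and without Shh+ replicate 2 it was −3.61. The 10 melanocyte markers also differed between these libraries. They summed to 8.10 FPKM in Shh+ replicate 1 and 45.2 FPKM in Shh+ replicate 2, with 9 of the 10 higher in replicate 2 and Gpr143 at 0 in both. They summed to 31.8 and 66.6 FPKM in the Nfatc1+ libraries. Dct was at 9.90 and 21.4 FPKM there, against 2.52 and 14.4 FPKM in the Shh+ libraries. Of the 9 that passed the filter, 8 were not called, Dct among them. Mitf was called toward Nfatc1+ cells, at 9.735 and 12.32 FPKM against 0.860 and 1.285 FPKM (log2 fold change −2.88, limma adjusted p = 5.18e-05). The part of these markers in the Fst values was not tested.

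Sostdc1 was the most abundant gene of the 10 in Nfatc1+ cells. Its product, also called ectodin or Wise, binds BMPs and also the Wnt coreceptors Lrp5 and Lrp6, and the gene lies on the plus strand of chromosome 12 (chr12:36314139-36318452). Sostdc1 was at 239.1 and 231.9 FPKM in the Nfatc1+ libraries and at 48.0 and 45.9 FPKM in the Shh+ libraries. The replicates of each group were close and the groups lay far apart. The means of 235.5 ± 5.09 and 46.9 ± 1.47 FPKM (SD, n = 2) differed 5.02-fold (log2 fold change −2.32, SE 0.058, 95% confidence interval −2.45 to −2.18, limma adjusted p = 2.57e-06). Sostdc1 had the smallest adjusted p of the 10 genes. It ranked 233 by level among all genes in Nfatc1+ cells and 1768 in Shh+ cells.

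Chrd went the other way from Fst and Sostdc1, at a much lower level. Chrd encodes chordin, which binds BMPs and releases them when it is cut by the protease that Bmp1 encodes. It lies at chr16:20733127-20742384 on the plus strand and shares exon sequence with Thpo on the opposite strand, which was at 0.0409 to 0.356 FPKM. Chrd was at 0.497 and 0.566 FPKM in Nfatc1+ cells and at 1.34 and 1.30 FPKM in Shh+ cells, and the groups did not overlap. The means of 0.532 ± 0.049 and 1.32 ± 0.0312 FPKM (SD, n = 2) differed 2.48-fold, with a log2 fold change of 0.82 (SE 0.20, 95% confidence interval 0.34 to 1.30, limma adjusted p = 0.0192). The call ended when any single library was left out, which leaves 1 group with 1 library, with limma adjusted p = 0.0784 and 0.0539 without Nfatc1+ replicate 1 and 2 and 0.0714 and 0.0631 without Shh+ replicate 1 and 2.

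The remaining antagonist genes were hardly detected. Nog encodes noggin, which in skin is made mainly by the mesenchyme, and lies at chr11:89300638-89302332 on the minus strand. It was at 0.195 and 0.369 FPKM in Nfatc1+ cells and at 0.105 and 0.255 FPKM in Shh+ cells, and the groups overlapped. Grem1 encodes gremlin 1, a BMP antagonist of mesenchymal cells, and lies at chr2:113746164-113758646 on the minus strand. It was listed at 0 in 3 libraries and at 0.101 FPKM in Shh+ replicate 2. With 1 value above 0, the number of fragments behind it could not be read by the match used for Bmp3 and Bmp6. At this depth no difference could be shown for either gene.

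**Figure D2:**
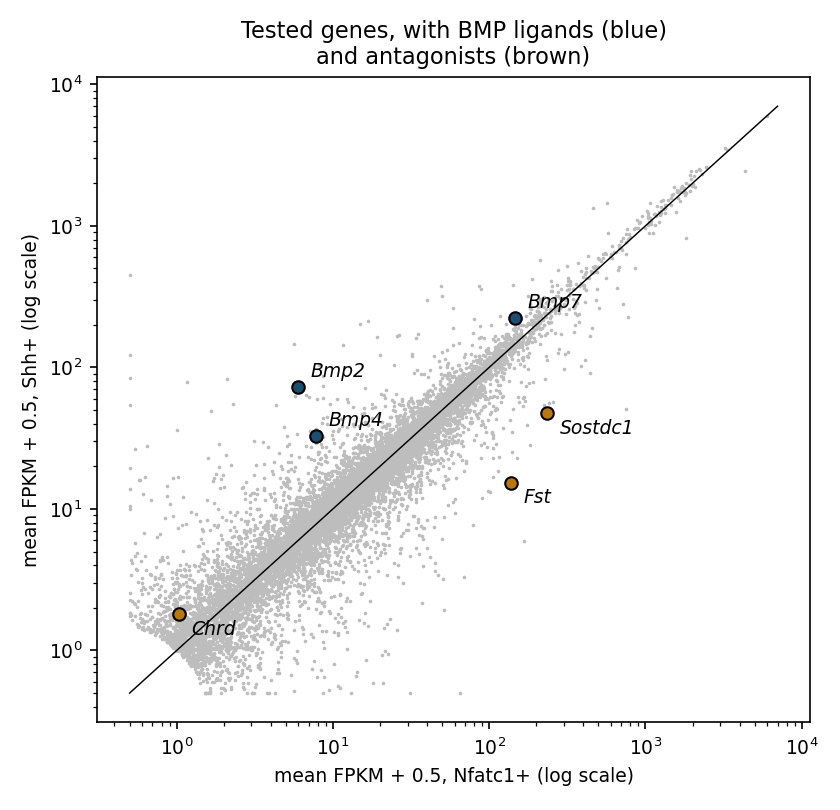
Mean FPKM + 0.5 of each of the 12750 tested genes in Nfatc1+ cells (horizontal) and Shh+ cells (vertical), both on log axes, with the line of equal level. Blue points are Bmp2, Bmp4 and Bmp7, and brown points are Fst, Sostdc1 and Chrd; Bmp2 lies far above the line, Bmp7 just above it, and Fst and Sostdc1 well below it.

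The order of the genes by level changed with the population. In Nfatc1+ cells Sostdc1 led, followed by Bmp7, Fst, Bmp4, Bmp2, Chrd, Bmp3, Nog, Bmp6 and Grem1. The libraries of neighbors in this order did not overlap, except for Bmp3 and Nog and for Nog and Bmp6. In Shh+ cells Bmp7 led, followed by Bmp2, Sostdc1, Bmp4, Fst, Chrd, Bmp6, Bmp3, Nog and Grem1, and the only neighbors whose libraries overlapped were Bmp3 and Nog.

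The makeup of each class changed as well. Bmp7 held 91.4% and 92.1% of the summed ligand FPKM in the Nfatc1+ libraries and 69.0% and 66.7% in the Shh+ libraries. The share of Bmp2 was 3.35% and 3.48% in Nfatc1+ cells and 19.6% and 24.5% in Shh+ cells. Bmp4 held 5.05% and 4.06%, and 11.1% and 8.59%. Bmp2 was thus below Bmp4 in both Nfatc1+ libraries and above it in both Shh+ libraries. Among the antagonists, Sostdc1 held 63.8% and 62.1% of the sum in Nfatc1+ cells and 79.7% and 69.1% in Shh+ cells, and nearly all of the rest was Fst, at 36.0% and 37.6%, and 17.9% and 28.4%. Chrd stayed at or below 2.23% of the antagonist sum in every library.

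The sums show the opposite movement of the classes. Ligand genes summed to 157.9 and 161.8 FPKM in Nfatc1+ cells and to 317.2 and 334.3 FPKM in Shh+ cells. Antagonist genes summed to 374.9 and 373.2 FPKM in Nfatc1+ cells and to 60.2 and 66.4 FPKM in Shh+ cells. Antagonist transcripts therefore outweighed ligand transcripts in both Nfatc1+ libraries, with ratios of 2.37 and 2.31, and were outweighed in both Shh+ libraries, with ratios of 0.190 and 0.199. The mean ratios of 2.34 ± 0.0482 and 0.194 ± 0.00634 (SD, n = 2) differed 12.0-fold. These are sums of transcript levels over a chosen set of genes, and they are given as a description. Without Bmp2 the ratio differed 9.70-fold, without Fst 9.93-fold, without Bmp4 11.4-fold, without Chrd 12.3-fold and without Sostdc1 17.3-fold. Which class was larger in Nfatc1+ cells turned on Sostdc1, since without it the ratios were 0.860 and 0.873 there and 0.0386 and 0.0615 in Shh+ cells. Bmp7 weighed most on the ligand side, and without it the ratios were 27.5 and 29.0 against 0.612 and 0.597, a 46.7-fold difference.

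**Figure D3:**
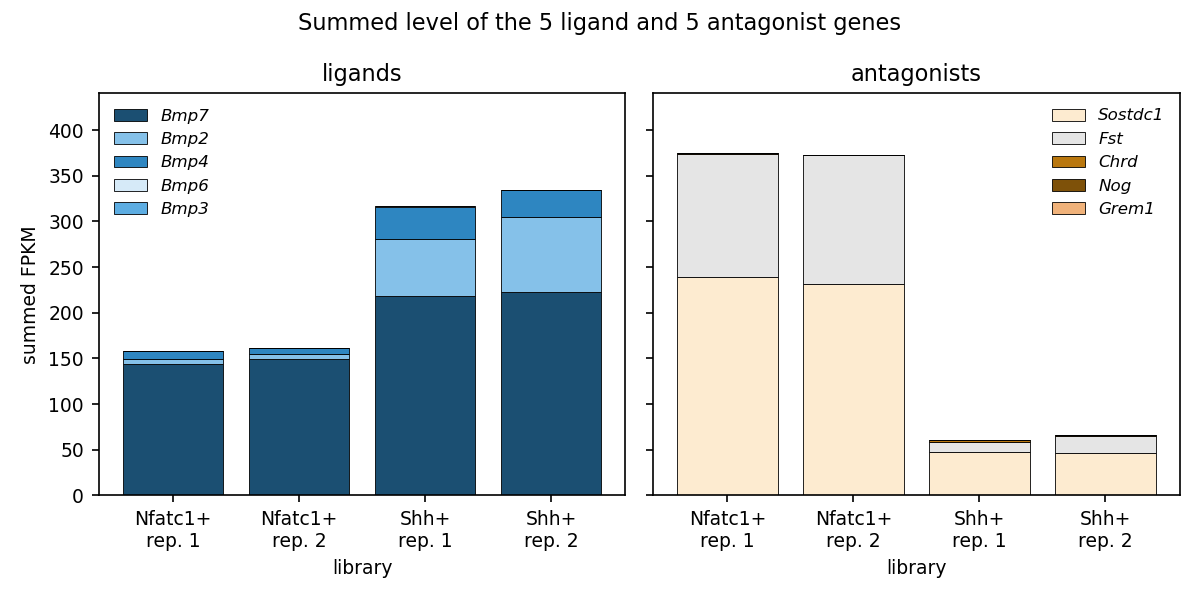
Summed FPKM of the 5 ligand genes (left) and the 5 antagonist genes (right) in each library, with each gene's part as a colored segment. The ligand sum is at most 161.8 FPKM in Nfatc1+ libraries and at least 317.2 FPKM in Shh+ libraries, while the antagonist sum is at least 373.2 and at most 66.4 FPKM, and Bmp7, Bmp2, Bmp4, Sostdc1 and Fst make up nearly all of both.

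The other genes of the pathway, listed by role, were read beside these values. Of 52 genes in 6 lists, 35 passed the filter, 9 were called toward Shh+ cells, 11 toward Nfatc1+ cells and 15 in neither direction. Over all tested genes, the shares called toward Shh+ and Nfatc1+ cells were 18.1% and 18.9%, which also apply to the counts per list below. Other ligand genes were almost silent, and of 10 listed (Bmp5, Bmp8a, Bmp8b, Bmp10, Bmp15, Gdf2, Gdf5, Gdf6, Gdf7 and Gdf10) only Gdf10 passed the filter. Gdf10, which encodes a relative of the Bmp3 protein, was at 0.256 and 0.632 FPKM in Nfatc1+ cells and at 2.25 and 1.78 FPKM in the Shh+ libraries (log2 fold change 1.44, SE 0.26, limma adjusted p = 0.0053). That call ended when no gene was filtered out (adjusted p = 0.115).

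Of 14 other secreted modulators, 8 passed the filter, 1 was called toward Shh+ cells and 4 toward Nfatc1+ cells. Toward Nfatc1+ cells, in the same direction as Fst and Sostdc1, Nbl1, which encodes an antagonist of the DAN family, was at 46.2 and 52.2 FPKM against 6.03 and 5.32 FPKM (log2 fold change −3.01, SE 0.10, limma adjusted p = 4.2e-06). Crim1, a membrane protein gene whose product binds BMPs through chordin-like repeats, was at 47.4 and 53.0 FPKM against 19.3 and 20.1 FPKM (log2 fold change −1.33, SE 0.08, limma adjusted p = 3.43e-05). The follistatin-like genes Fstl1 and Fstl3 were the other two in this direction, with log2 fold changes of −0.76 and −0.70. The call of Fstl1 ended with no filter (limma adjusted p = 0.0599). That of Fstl3 ended with no filter (0.267), with no variance trend (0.0594), and without Nfatc1+ replicate 1 (0.1), Nfatc1+ replicate 2 (0.0813) or Shh+ replicate 2 (0.0964). Twsg1, whose product binds chordin and BMP together, was the gene higher in Shh+ cells, with 59.5 and 61.4 FPKM against 95.01 and 93.2 FPKM.

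All 5 protease genes that passed, of 6 listed, were called. Bmp1, whose product cuts chordin, was at 66.5 and 64.8 FPKM in Nfatc1+ cells and at 28.6 and 28.8 FPKM in the Shh+ libraries (log2 fold change −1.18, SE 0.06, limma adjusted p = 1.94e-05). Its relative Tll1 went the other way, from 5.16 and 6.45 FPKM to 14.2 and 15.0 FPKM (log2 fold change 1.27, SE 0.12, limma adjusted p = 0.000316, or 0.0502 with no filter). Of the proprotein convertase genes, whose products cut BMP precursors, Furin and Pcsk6 were called toward Nfatc1+ cells and Pcsk5 toward Shh+ cells, with log2 fold changes of −0.60, −0.46 and 0.84. With no filter the calls of Pcsk5 (limma adjusted p = 0.107) and Pcsk6 (0.083) ended, and that of Pcsk6 also ended without Nfatc1+ replicate 2 (0.0987) or Shh+ replicate 1 (0.057).

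Most receptor and coreceptor genes were not called, 8 of the 10 tested, with 1 called in each direction. Bmpr1a, which encodes the main type I receptor of skin epithelium, was at 47.9 and 46.8 FPKM in Nfatc1+ cells and at 42.2 and 43.6 FPKM in Shh+ cells. Its log2 fold change was −0.14 (95% confidence interval −0.29 to 0.01, limma adjusted p = 0.119). Bmpr2, which encodes a type II receptor, had a log2 fold change of −0.14 (95% confidence interval −0.35 to 0.07, limma adjusted p = 0.264). Bambi, a decoy receptor gene and itself a known target of BMP signaling, was at 1.39 to 1.48 FPKM in the 4 libraries. Bmpr1b, a further type I receptor gene, was at 1.86 and 2.78 FPKM in Nfatc1+ cells and at 5.14 and 6.56 FPKM in the Shh+ libraries (log2 fold change 1.18, SE 0.20, limma adjusted p = 0.004, or 0.131 with no filter). Rgma, which encodes a BMP coreceptor, fell from 89.4 and 87.3 FPKM in Nfatc1+ cells to 24.3 and 20.6 FPKM in the Shh+ libraries (log2 fold change −1.96, SE 0.09, limma adjusted p = 1.22e-05).

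Of the 6 Smad genes, Smad5 was higher in Shh+ cells (log2 fold change 0.25), and Smad1 and Smad9 were higher in Nfatc1+ cells (−0.52 and −1.33). The call of Smad5 ended without Nfatc1+ replicate 1 (limma adjusted p = 0.103), without Shh+ replicate 2 (0.0614), with no filter (0.0646) and with no variance trend (0.0711). Smad9 was low, at 0.892 and 1.34 FPKM against 0.160 and 0.115 FPKM, and its call ended with no filter (limma adjusted p = 0.0672), while without Nfatc1+ replicate 2 it fell below the filter. The shared partner gene Smad4 and the inhibitory genes Smad6 and Smad7 were not called, with log2 fold changes of 0.01, −0.07 and 0.03.

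Genes that BMP signaling is known to raise did not move as 1 group. Id3 was at 49.4 and 49.8 FPKM in Nfatc1+ cells and at 127.9 and 126.1 FPKM in the Shh+ libraries (log2 fold change 1.35, SE 0.06, limma adjusted p = 8.61e-06). Id2 was at 16.5 and 15.9 FPKM against 38.5 and 39.0 FPKM (log2 fold change 1.23, SE 0.07, limma adjusted p = 2.68e-05). Msx2, a homeobox gene of the follicle matrix, was at 6.66 and 7.37 FPKM against 17.4 and 16.4 FPKM (log2 fold change 1.21, SE 0.10, limma adjusted p = 0.000123). These 3 were higher in the Shh+ libraries, and a link to the ligand and antagonist sums was not tested. Id4 went the other way, from 88.4 and 89.9 FPKM to 12.1 and 10.97 FPKM (log2 fold change −2.90, SE 0.07, limma adjusted p = 2.57e-06). Id1 was at 39.6 and 38.6 FPKM in Nfatc1+ cells and at 38.7 and 39.5 FPKM in Shh+ cells, with a 95% confidence interval of −0.15 to 0.15 for its log2 fold change (limma adjusted p = 0.996). Msx1 was below the filter, at 0.631 and 0.681 FPKM against 0.0524 and 0.253 FPKM.

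**Figure D4:**
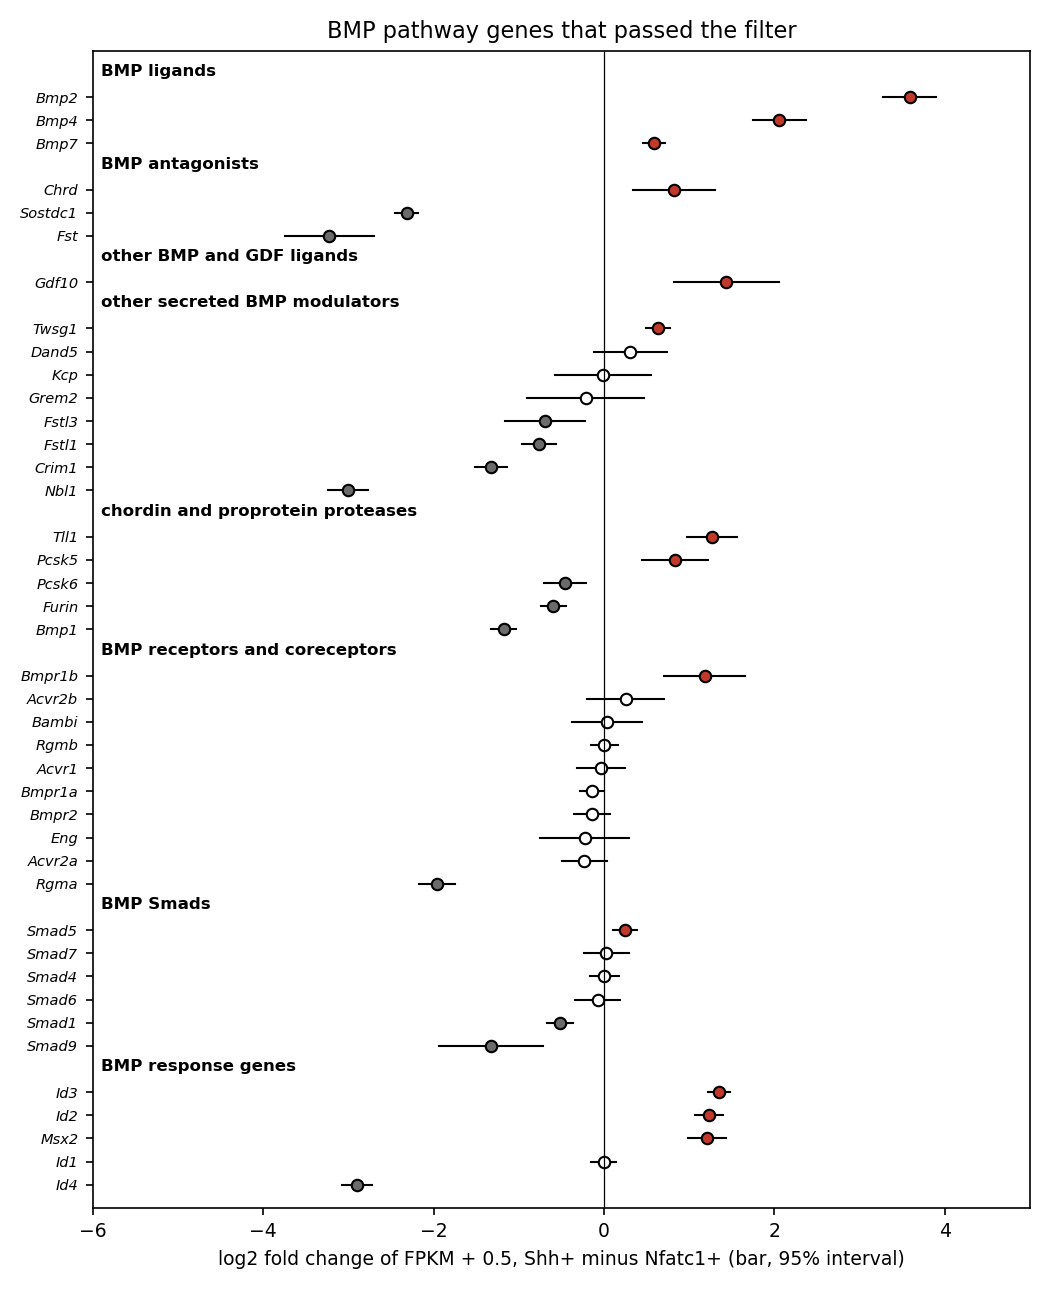
Log2 fold change of FPKM + 0.5 (Shh+ minus Nfatc1+) with its 95% confidence interval for each BMP pathway gene that passed the filter, grouped by role. Red points were called toward Shh+ cells, dark grey points toward Nfatc1+ cells and open points in neither direction; Bmp2 (3.59) and Fst (−3.22) mark the ends of the range, and 8 of the 10 receptor genes are open.

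Other gene classes moved with the same comparison, in which 18.1% and 18.9% of tested genes were called toward Shh+ and Nfatc1+ cells. Of 17 immediate early genes that passed the filter, a class that tissue digestion can induce, 15 were higher in Nfatc1+ cells, with sums of 3269 and 3705 FPKM against 1546 and 1641 FPKM. All 6 Merkel cell markers were higher in Nfatc1+ cells, with sums of 51.1 and 59.1 FPKM against 18.4 and 22.8 FPKM, and Krt20 was at 0 in Shh+ replicate 1. Of the suprabasal epidermal markers, 3 passed the filter, and all were higher in Shh+ cells, with list sums of 491.9 and 558.3 FPKM against 1002 and 802.2 FPKM and Ivl at 0 in 3 libraries. Of 6 epithelial markers, 5 were higher in Nfatc1+ cells, with sums of 8123 and 7976 FPKM against 4849 and 4823 FPKM. Of 10 dermal fibroblast markers, 1 was higher in each direction, with sums of 291.1 and 562.2 FPKM against 553.2 and 611.5 FPKM. The marker called toward Shh+ cells was Dcn, at 326.4 and 424.7 FPKM against 40.3 and 57.7 FPKM, which made up most of the Shh+ sum. The marker called toward Nfatc1+ cells was the collagen gene Col3a1, at 59.8 and 53.6 FPKM against 76.6 and 162.0 FPKM (log2 fold change −0.97, limma adjusted p = 0.0422). Col1a1 was not called (limma adjusted p = 0.0712). Endothelial and leukocyte markers summed to 1.74 to 5.06 FPKM in every library. The part of these classes in the differences of the ligand and antagonist genes was not tested.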

How the data were processed

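The authors sequenced paired-end reads of 100 bases and mapped them to the mouse genome (mm10, GRCm38). Tools named in the submitters' processing notes were TopHat2 2.0.13, HTSeq and Cufflinks 2.2.1. The deposited values were FPKM per gene and library, made by the authors with Cufflinks, with no counts. The gene annotation and library strand were not given in the sources used here, so reads of overlapping genes on opposite strands may be mixed.

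FPKM were tested as log2(FPKM + 0.5) with limma 3.58.1 (variance trend, no block) in R 4.3.3, over genes whose mean reached 0.5 FPKM, and p-values were adjusted over all 12750 genes tested. The fit was tested on simulated data. Gene positions, transcripts and sequences came from GENCODE vM21 (GRCm38), with shared 100-base windows searched over all its transcripts. Whole fragments were matched within 0.05 of a whole number, with numbers up to 60 tried. A narrower search, with numbers up to 20, found a match for 82.7% of 1165 genes above 0 and under 0.5 FPKM in every library. Multiples of the matched numbers would match equally well.

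All 10 genes were named, with other pathway genes called at an absolute log2 fold change of at least 1, Bmpr1a, Bmpr1b, Bmpr2, Bambi, Id1, Id2, Id3, and Krt14, Pdgfra and Col1a1. Fstl1, Fstl3, Twsg1, Furin, Pcsk5, Pcsk6, the other Smad genes and Msx1 fell outside this rule. So did the markers Sox2, Alpl, Hhip, Dcn, Col3a1, Krt20, Ivl, Dct, Gpr143 and Mitf. All of these were added after their values were seen. The genes and lists were chosen with earlier results of these data known. Alternatives changed the pseudocount (0.1 or 1), filter (none, or a mean of 1 FPKM), scaling, variance trend, block, threshold and libraries.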

Additional observations from a re-analysis of the deposited data

How the results depend on the processing

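Bmp2, Bmp4, Fst and Sostdc1 kept their direction and call under all 14 alternatives, with log2 fold changes of 3.39 to 3.79, 1.92 to 2.21, −3.61 to −2.83 and −2.35 to −2.28. Their limma adjusted p was largest with no filter, at 0.0212, 0.0371, 0.0492 and 0.014, so the call of Fst was then close to the threshold. Under an unadjusted p under 0.01 with a fold above 2, 2 of the BMP ligand and antagonist genes were called toward Shh+ cells instead of 4, since the calls of Bmp7 and Chrd ended. Of the other pathway genes, 6 instead of 9 were then called toward Shh+ cells and 6 instead of 11 toward Nfatc1+ cells. With no filter, which adds low genes to the test, 5 instead of 9 other pathway genes were called toward Shh+ cells and 7 instead of 11 toward Nfatc1+ cells, and calls over all genes fell from 2310 and 2406 to 900 and 1109 (600 and 734 under the threshold with a fold above 2). Leaving out each library in turn leaves 1 group with 1 library, so the spread comes from the other group and the lone library is assumed to vary like it. These 4 fits gave 3 ligand and antagonist genes called toward Shh+ cells and 2 toward Nfatc1+ cells, and 8 to 9 and 8 to 11 other pathway genes. The ratio of antagonist to ligand sums differed by 3.56 to 3.62 on the log2 scale between the populations. With the replicate number as a block, the counts were again 4 and 2, the log2 fold change of Fst had an adjusted p = 1.15e-06, and no call of the 10 genes changed. Replicate numbers are all that links libraries across the groups, and the replicate differences of the groups correlated at 0.114 over the tested genes. No result reversed. With 2 libraries a group and unknown depth, genes below the filter such as Bmp3 and Bmp6 may rest on few fragments. For Chrd the smallest whole numbers that fit were 18 and 19 in the Nfatc1+ and 45 and 27 in the Shh+ libraries. Its true numbers of fragments are not known either.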

Other observations

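Genes beside the BMP genes on the chromosome were read for the same comparison, each being the nearest protein-coding gene of the table on either side that does not overlap. Spo11, which encodes the enzyme that makes meiotic DNA breaks, starts 37.4 kb from Bmp7 and had mean levels of 4.62 FPKM in the Nfatc1+ and 16.0 FPKM in the Shh+ libraries (n = 2 each, log2 fold change 1.69, limma adjusted p = 0.000158). Fmn1, which encodes an actin-binding formin, lies 29.4 kb from Grem1 with mean levels of 1.73 and 0.410 FPKM (log2 fold change −1.30, limma adjusted p = 0.00459). Its neighbor Grem1 was listed at 0 in 3 of the 4 libraries. Of 20 such neighbors, 13 passed the filter and 6 were called, 4 toward Shh+ cells and 2 toward Nfatc1+ cells. Of all tested genes, 18.1% and 18.9% were called in these directions. Fermt1, 606 kb from Bmp2, was also called (log2 fold change 0.61, limma adjusted p = 0.00163), as was Mocs2, 359 kb from Fst (−0.57, 0.00769). The remaining called neighbors were Polr2h, 10.9 kb from Chrd (0.49, 0.0119), and Tfap2c, 309 kb from Bmp7 (0.30, 0.0251). A link between the neighbors and the BMP genes was not tested. Neighbors were chosen by position, and those named were picked after their values were seen.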
